A study of Rattus norvegicus with 29 samples.

Results

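The 6 miRNAs described here are the mature arms of 3 hairpins from imprinted regions of the rat genome: miR-675-5p and miR-675-3p from H19, and miR-298-5p, miR-298-3p, miR-296-5p and miR-296-3p from beside Gnas. They were chosen by name, as every entry of the count table with the exact stem miR-675, miR-296 or miR-298, and make up 6 of its 754 miRNAs. No measured value enters the names, but the set was proposed with earlier results of these data in view, so all tests on it are given as a description. Plasma was drawn from the tail vein of adult male Sprague-Dawley rats into K2EDTA tubes 48 h after surgery, and each of the 29 rats was 1 small RNA library. The 10 controls were sham-operated, that is, prepared in the same way but given no fluid-percussion pulse. The 19 injured rats had traumatic brain injury (TBI) by lateral fluid percussion and were later sorted by video-EEG in the seventh month into 10 rats without epilepsy (TBI-) and 9 with epilepsy (TBI+). Surgery and blood sampling were done at UEF (4 sham, 4 TBI- and 4 TBI+ rats), Monash (3, 3 and 2 rats) and UCLA (3, 3 and 3 rats). A rat is named below by site, outcome and the number in its label, as in Monash TBI- 2.

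In an imprinted region, genes are expressed mainly from the copy inherited from one parent. H19 is a maternally expressed long non-coding RNA that is abundant in fetal tissues, falls in most of them after birth and persists in skeletal muscle, and the miR-675 hairpin is cut from its transcript. It lies beside Igf2, the paternally expressed gene of a fetal growth factor. The Gnas region makes maternal, paternal and biallelic transcripts around the gene of a G protein alpha subunit, and miR-296 and miR-298 are read from a transcript antisense to its upstream part. Of the 2 arms of a miRNA hairpin, the one loaded into Argonaute is kept and the other is mostly lost. The seed, bases 2 to 8 of the loaded arm, does most of the pairing with target mRNAs.

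The mature sequences, from RefSeq on the build GRCr8, are shown because the 2 arms of a hairpin did not always behave alike in these plasma samples. Each is written 5′ to 3′ with its seed in capitals.
rno-miR-675-5p: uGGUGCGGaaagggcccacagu
rno-miR-675-3p: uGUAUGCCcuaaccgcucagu
rno-miR-298-5p: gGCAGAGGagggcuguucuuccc
rno-miR-298-3p: aGGAACUAgccuucucucugcu
rno-miR-296-5p: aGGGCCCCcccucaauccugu
rno-miR-296-3p: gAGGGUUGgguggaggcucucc
The 6 seeds were all different, and none was shared with another of the 674 miRNAs of the table that matched a RefSeq mature sequence. The GC content was 63.6% in miR-675-5p, 52.4% in miR-675-3p, 65.2% in miR-298-5p, 50.0% in miR-298-3p, 66.7% in miR-296-5p and 68.2% in miR-296-3p. All 6 values were above the median of 47.8% over the matched miRNAs.

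The Mir675 hairpin lies at chr1:207161752-207161835 on the minus strand, within H19 (chr1:207160175-207162851), and Igf2 begins 81021 bases from H19. The hairpin is printed with both mature arms in capitals, because 1 rat carried its 3′ arm at a high level and its 5′ arm at an ordinary level.
Mir675 hairpin: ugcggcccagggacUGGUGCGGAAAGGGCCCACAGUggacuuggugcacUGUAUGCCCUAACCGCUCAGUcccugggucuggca
The Mir296 hairpin (chr3:183470069-183470146, minus strand) and the Mir298 hairpin (chr3:183470522-183470603, minus strand) are 375 bases apart. Gnas lies 19044 bases beyond Mir298, at chr3:183489648-183554570.

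Total miRNA counts were between 1162307 and 5223469 per rat. Levels below are CPM, the counts of a miRNA relative to the library's total after TMM scaling, which sets libraries to a common level over most miRNAs. The number of miRNAs more than 3 log2 units above the median of the other rats was highest in UEF sham 3 (13), which also had the lowest scaling factor (0.333), followed by Monash TBI- 2 (11) and by UEF sham 4 and UEF TBI- 2 (10 each). Markers of other sources of plasma miRNA differed between sites. All 4 liver markers were higher at UEF than at UCLA, as were 3 of 5 muscle markers. None of the 5 red cell markers passed the test in any site pair. Of the 5 muscle markers 3 were also higher at Monash than at UCLA. Of the 4 liver markers 2 were higher at UEF than at Monash, and 1 at Monash than at UCLA. Of 5 brain markers 1 was higher at UEF than at Monash and 1 was lower at UEF than at UCLA. Of 4 white cell and platelet markers 2 were lower at UEF than at Monash, and of 3 pancreas markers 1 was higher at UEF than at UCLA. The share of all miRNAs that passed was 9.99% for UEF against Monash, 9.32% for UEF against UCLA and 5.46% for Monash against UCLA. The summed red cell level ranged from 212500 to 568600 CPM at UCLA (median 364900), from 128700 to 632800 CPM at UEF (median 224400) and from 186600 to 459600 CPM at Monash (median 226900). After injury, 2 of 4 liver markers fell and 2 of 5 brain markers rose, where 1.20% of all miRNAs passed. All markers were detected at every site. A red cell ratio was tried as a term of the models, and the part of the other markers in the results below was not tested.

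All 6 miRNAs were detected in every rat, at low to middling levels. Across the 29 rats the median was 90.0 CPM for miR-296-5p, 57.5 CPM for miR-296-3p, 39.3 CPM for miR-298-5p, 20.1 CPM for miR-675-3p, 16.3 CPM for miR-675-5p and 10.2 CPM for miR-298-3p. These medians ranked 203, 268, 334, 478, 532 and 643 among the 751 miRNAs that passed the count filter. Each neighbour in this order differed from the next, in mean log2 CPM, by less than the larger of their SDs over rats. A mature miRNA is read whole, so no length correction was made, and the ligation and amplification of different sequences also shape such an order. The lowest count was 7 (miR-298-3p in UEF sham 3) and the lowest count of miR-675-5p was 14, so counting error weighed most on these.

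The rats differed most in miR-675-3p, whose log2 CPM had an SD of 1.04 over the 29 rats, rank 111 of 751. The SD was 0.52 for miR-675-5p, 0.57 for miR-298-5p, 0.70 for miR-298-3p, 0.48 for miR-296-5p and 0.53 for miR-296-3p, against a median of 0.63 over all miRNAs. A single rat set the wide spread of miR-675-3p, and it stands off the scale of the others in the plot of levels by rat.

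**Figure D1:**
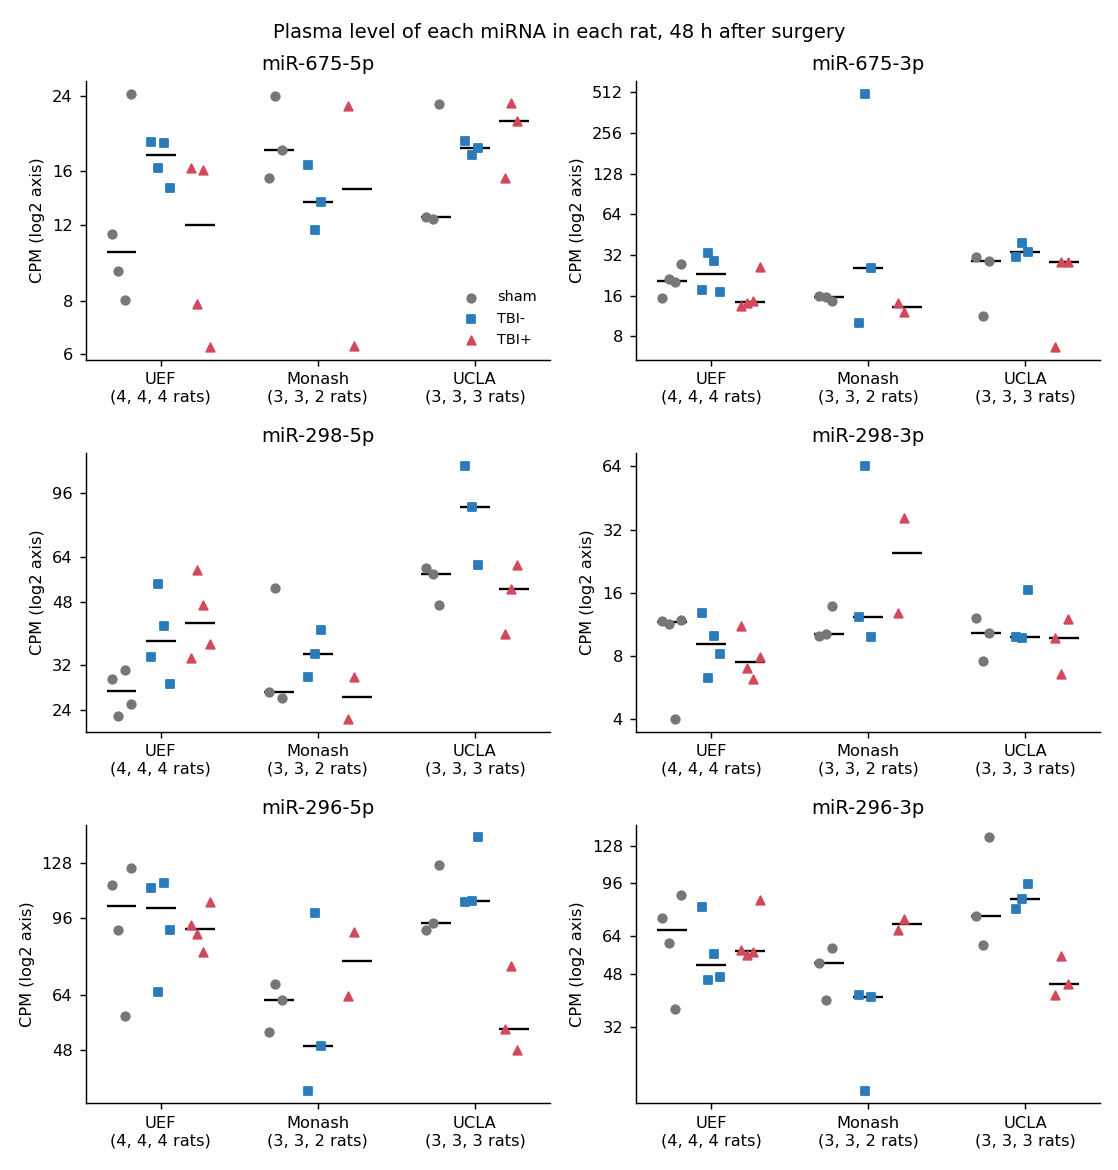
Level of each of the 6 miRNAs in each rat, in CPM on a log2 axis, by site and by outcome (grey circles, sham; blue squares, TBI-; red triangles, TBI+), with horizontal lines at the group medians. miR-675-3p reached 501 CPM in 1 Monash TBI- rat and at most 39.5 CPM in the other 28, and miR-298-5p was highest at UCLA.

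The H19 product miR-675-3p was the most variable member, and its level turned on 1 rat. In UEF, it was 15.3, 21.2, 20.1 and 27.5 CPM in sham, 17.6, 32.9, 28.9 and 17.0 CPM in TBI- and 13.5, 14.1, 14.6 and 26.3 CPM in TBI+ rats. In Monash, it was 16.01, 15.7 and 14.6 CPM in sham, 10.0, 501 and 25.6 CPM in TBI- and 14.1 and 12.2 CPM in TBI+ rats. In UCLA, it was 31.1, 11.4 and 29.02 CPM in sham, 31.2, 39.5 and 33.9 CPM in TBI- and 6.66, 28.7 and 28.3 CPM in TBI+ rats. At UEF the groups overlapped. At Monash both TBI+ rats lay below every sham rat, as they did in 16.1% of all miRNAs. At UCLA the 3 TBI- rats lay above every sham rat, with 31.2 against 31.1 CPM at the closest, which held for 2 of the 6 (miR-675-3p and miR-298-5p) and for 9.19% of all miRNAs.

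In Monash TBI- 2, miR-675-3p had 1627 counts, where the other 28 rats had a median of 52. Its level was 12.7 times that of the next rat. The 5′ arm of the same hairpin had 38 counts in this rat, or 11.7 CPM, within the range of 6.23 to 24.3 CPM of all rats. The log2 ratio of miR-675-5p to miR-675-3p was therefore -5.40 in this rat, and it lay between -2.05 and 1.19 in the other 28.

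This library was high in other miRNAs too. Set against the median of the other 28 rats, miR-675-3p ranked 5 of 751, with a difference of 4.68 on the log2 scale. It came after miR-881-5p (5.82), miR-3543 (5.74), miR-105 (5.15) and miR-300-5p (5.09), and before miR-6331 (4.44) and miR-449a-3p (3.59). miR-300-5p is a product of the imprinted Dlk1-Dio3 region, but the summed level of the 81 miRNAs of that region in this rat ranked 9 of 29. Its summed red cell level ranked 14, its liver level 22, its muscle level 8, its brain level 15 and its white cell and platelet level 2 of 29. In the same library miR-298-3p was the highest of all rats, at 64.7 CPM, and miR-296-3p was the lowest, at 19.7 CPM.

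**Figure D2:**
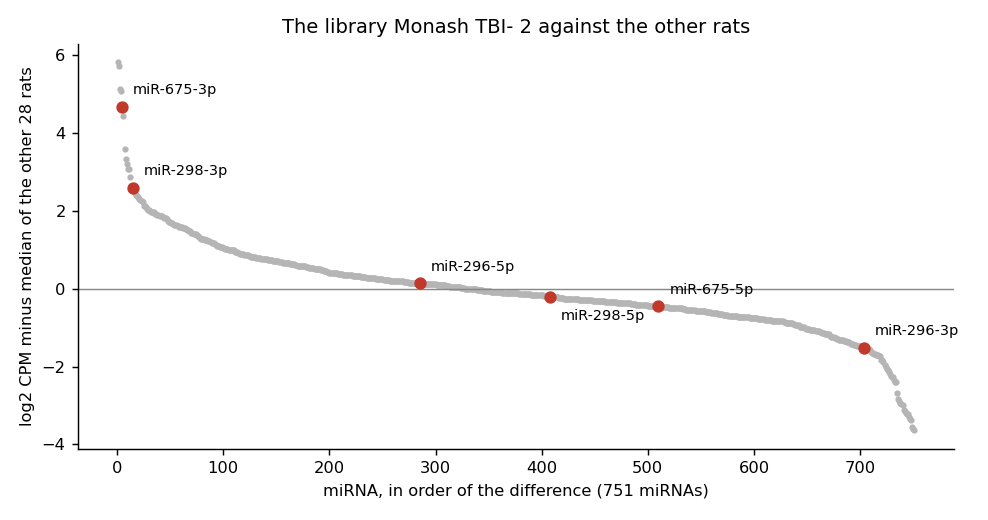
Difference between the library Monash TBI- 2 and the median of the other 28 rats, in log2 CPM (vertical axis), for 751 miRNAs placed from the highest to the lowest difference (horizontal axis), with the 6 described miRNAs in red. miR-675-3p stood 4.68 above the other rats while miR-675-5p, from the same hairpin, lay near the middle and miR-296-3p near the lower end.

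The first comparison asked whether injury changed the 6 miRNAs, with edgeR's quasi-likelihood test on the counts and site in the model. Between TBI (n = 19) and sham rats (n = 10), 0 of the 6 passed an adjusted p of 0.05, where 1.20% of the 751 miRNAs did. The log2 fold change was 0.62 (SE 0.45) for miR-675-3p, -0.02 (SE 0.22) for miR-675-5p, 0.29 (SE 0.17) for miR-298-5p, 0.28 (SE 0.28) for miR-298-3p, -0.06 (SE 0.17) for miR-296-5p and -0.19 (SE 0.19) for miR-296-3p. Their adjusted p by edgeR was between 0.607 and 0.979. The log2 fold change of miR-298-5p was 0.10 with the ratio of miR-451-5p, a red cell miRNA, to miR-23a-3p in the model, and 0.00 without the UEF rats. Without Monash TBI- 2 the log2 fold change of miR-675-3p was 0.03 (edgeR adjusted p = 0.967). In bulk plasma, fewer cells releasing a miRNA and less release from each cell cannot be told apart.

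miR-298-5p, which in other settings is known to bind the mRNA of the amyloid-processing enzyme BACE1, had the lowest p of the 6 in that comparison. It was 29.3, 23.2, 31.0 and 25.1 CPM in the sham rats of UEF, 33.7, 53.9, 41.2 and 28.4 CPM in TBI- and 33.5, 58.9, 47.2 and 36.7 CPM in TBI+ rats. Every UEF TBI+ rat thus lay above every UEF sham rat, which held for 2.93% of all miRNAs in that direction. The exact permutation test of these 4 against 4 rats gave p = 0.0286 (two-sided), the smallest that 4 against 4 allows, and 0.6 after adjustment over the 54 comparisons of 6 miRNAs within sites.

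In the edgeR fit with an injury effect for each site, miR-298-5p was 0.62 log2 units higher after TBI at UEF (SE 0.27), with an adjusted p of 0.224. This became 0.36 with the red cell ratio in the model and 1.05 with library totals alone, and neither passed. Of the 5 red cell markers 1 rose after TBI at UEF, with a median log2 fold change of 0.96 over the 5. At UEF, 3.86% of all miRNAs passed this test and 0 of the 6 did. In Monash, miR-298-5p was 27.0, 52.6 and 26.0 CPM in sham, 29.7, 34.5 and 40.3 CPM in TBI- and 22.7 and 29.7 CPM in TBI+ rats, with overlap between all groups. The difference between the sites in its injury effect was not past the threshold (edgeR adjusted p = 0.494).

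At Monash, the injury effect was 2.87 log2 units (SE 0.92) for miR-675-3p and 1.29 (SE 0.50) for miR-298-3p, with adjusted p by edgeR of 0.299 and 0.496. 0 of the 6 passed there, and the share was 0% of all miRNAs as well, although 56 had an unadjusted p under 0.05, the 2 named here among them, and DESeq2 called 5. The value of miR-675-3p rested on 1 library, since without Monash TBI- 2 it was 0.01. That of miR-298-3p was then 0.67. At UCLA, 0 of the 6 and 0.266% of all miRNAs passed. For the injury effect by site, the interaction test of edgeR, 0 of the 6 passed against 1.07% of all miRNAs, and the lowest adjusted p among them was 0.333, for miR-675-3p.

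The second comparison asked whether levels at 48 h differed between injured rats with and without later epilepsy. Between TBI+ (n = 9) and TBI- rats (n = 10), 0 of the 6 passed and 0% of the 751 miRNAs did by edgeR, with 18 at an unadjusted p under 0.05 and 0 calls by DESeq2 as well. miR-675-3p had the lowest p of all 751 in this comparison, with a log2 fold change of -1.55 (SE 0.56), an unadjusted p of 0.00919 and an adjusted p of 0.998 by edgeR. The median was 14.1 CPM in TBI+ rats (range 6.66 to 28.7) and 30.0 CPM in TBI- rats (range 10.0 to 501), and the groups overlapped. Without Monash TBI- 2 its log2 fold change was -0.57, with an adjusted p of 0.999.

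The other members differed less between the outcomes. The log2 fold change of TBI+ against TBI- was -0.17 (SE 0.25) for miR-675-5p, -0.25 (SE 0.20) for miR-298-5p, -0.29 (SE 0.32) for miR-298-3p, -0.26 (SE 0.21) for miR-296-5p and 0.09 (SE 0.23) for miR-296-3p. That of miR-298-3p changed sign, to 0.09, without Monash TBI- 2.

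Each outcome was also set against the same 10 sham rats, so these results share their controls. For TBI- against sham, 0 of the 6 passed against 0.133% of all miRNAs, and for TBI+ against sham, 0 of the 6 against 0.533%. The TBI- rats had a log2 fold change of 1.39 (SE 0.53) in miR-675-3p and of 0.41 (SE 0.20) in miR-298-5p, with adjusted p by edgeR of 0.293 and 0.501. Without Monash TBI- 2 that of miR-675-3p was 0.32.

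Both arms of miR-296, a miRNA known from work on endothelial growth factor receptors, were low in the TBI+ rats of UCLA. miR-296-5p was 53.6, 74.7 and 48.0 CPM in these rats, 104, 105 and 146.5 CPM in TBI- and 90.3, 93.7 and 126 CPM in sham rats of UCLA. miR-296-3p was 41.0, 55.0 and 44.6 CPM in TBI+, 79.1, 85.5 and 95.7 CPM in TBI- and 74.8, 59.9 and 136.4 CPM in sham rats. No TBI+ rat of this site reached the lowest of the other groups in either arm.

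This separation was common at UCLA. 3 of the 6 (both arms of miR-296 and miR-675-3p) had every TBI+ rat below every TBI- rat, as did 19.6% of all miRNAs, and 2 of the 6 had every TBI+ rat below every sham rat, as did 18.0%. The exact permutation test gave p = 0.1 for each, the smallest that 3 against 3 allows. At UEF, miR-296-5p was 92.8, 88.4, 80.4 and 104 CPM in TBI+ and 112, 65.2, 116 and 90.0 CPM in TBI- rats, and in Monash it was 63.9 and 89.2 CPM against 38.9, 98.6 and 49.0 CPM. These groups overlapped. miR-296-3p at Monash was 67.0 and 73.3 CPM in TBI+, 41.0, 19.7 and 40.3 CPM in TBI- and 52.4, 39.3 and 58.5 CPM in sham rats. Both TBI+ rats there lay above every sham rat, as in 20.0% of all miRNAs, and above every TBI- rat, as in 19.2%, the order opposite to that at UCLA. At UEF its groups overlapped.

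**Figure D3:**
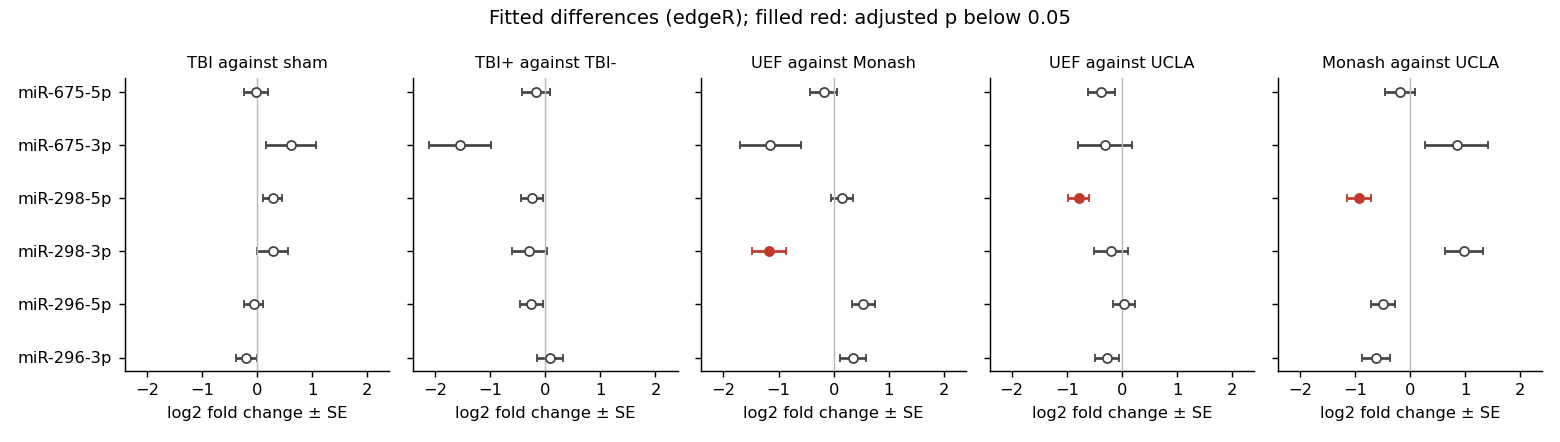
Fitted log2 fold change (point) with its SE (bar) of each of the 6 miRNAs in 5 comparisons by edgeR over all 29 rats, where a positive value means higher in the group named first. No point of the comparisons of injury or outcome passed an adjusted p of 0.05, and 3 points between sites did (filled, red): miR-298-3p for UEF against Monash, and miR-298-5p for UEF and for Monash against UCLA.

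The third comparison asked whether plasma from the 3 sites differed. Per the paper, the sites also differed in the source of the rats, their food and their housing before injury. The analgesic was buprenorphine at UEF and Monash and flunixin at UCLA, where antibiotic chow was also given after injury. These factors cannot be told apart from site here. For the 3 sites together, 2 of the 6 passed, miR-298-5p with an adjusted p of 0.00266 and miR-298-3p with 0.0199 by edgeR, where 14.8% of all miRNAs passed. The 2 arms of the miR-298 hairpin differed between different sites.

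miR-298-5p was highest at UCLA. It was 59.6, 57.6 and 47.1 CPM in sham, 115, 87.9 and 60.7 CPM in TBI- and 39.3, 52.2 and 60.9 CPM in TBI+ rats there. The median of the 9 UCLA rats was 59.6 CPM (range 39.3 to 115), against 33.6 CPM at UEF (range 23.2 to 58.9, n = 12) and 29.7 CPM at Monash (range 22.7 to 52.6, n = 8). The ranges overlapped. The log2 fold change was -0.79 (SE 0.19, edgeR adjusted p = 0.00669) for UEF against UCLA and -0.94 (SE 0.22, adjusted p = 0.00829) for Monash against UCLA. For UEF against Monash it was 0.15 (SE 0.21, edgeR adjusted p = 0.702).

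With the red cell ratio as a further term of the model, the first of these was -0.72 and the second -0.86, and both still passed. Among sham rats alone, the log2 fold change was -1.03 for UEF and -0.62 for Monash against UCLA, and neither passed.

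miR-298-3p was higher at Monash than at UEF, with its highest values in 2 injured rats. It was 9.94, 10.2 and 13.8 CPM in sham, 12.2, 64.7 and 9.88 CPM in TBI- and 12.9 and 36.5 CPM in TBI+ rats of Monash. At UEF it lay between 4.02 and 12.8 CPM (median 9.11, n = 12), and at UCLA between 6.58 and 16.5 CPM (median 9.84, n = 9). Only Monash TBI- 2 and Monash TBI+ 2 lay above the range of the other sites. The log2 fold change of UEF against Monash was -1.17 (SE 0.32, edgeR adjusted p = 0.0214). Without Monash TBI- 2 it was -0.72 (edgeR adjusted p = 0.118), and among sham rats alone -0.20. For Monash against UCLA it was 0.98 (SE 0.34, edgeR adjusted p = 0.0988), and for UEF against UCLA -0.20 (SE 0.31).

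The share of all miRNAs that passed was 9.99% for UEF against Monash, 9.32% for UEF against UCLA and 5.46% for Monash against UCLA, and in each 1 of the 6 passed. The other 4 miRNAs did not differ between any pair of sites past the threshold. The log2 fold change of UEF against Monash was 0.54 (SE 0.21, adjusted p = 0.0879 by edgeR) for miR-296-5p, 0.35 (SE 0.23) for miR-296-3p and -0.18 (SE 0.25) for miR-675-5p. That of miR-296-5p passed without Monash TBI+ 2 (0.67, adjusted p = 0.0305 by edgeR). For Monash against UCLA it was -0.50 (SE 0.22) for miR-296-5p, -0.62 (SE 0.25) for miR-296-3p and -0.19 (SE 0.27) for miR-675-5p. For UEF against UCLA it was 0.04 (SE 0.20) for miR-296-5p, -0.27 (SE 0.22) for miR-296-3p and -0.37 (SE 0.24) for miR-675-5p.

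miR-675-3p was -1.15 (SE 0.55) for UEF against Monash and 0.84 (SE 0.58) for Monash against UCLA on the log2 scale. Both signs turned without Monash TBI- 2, to 0.41 and -0.76, with adjusted p by edgeR of 0.334 and 0.117. Between UEF and UCLA it was -0.31 (SE 0.49).

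A ratio of 2 arms within a rat does not depend on the scaling between libraries. The log2 ratio of the 5′ to the 3′ arm, with 0.5 counts added to each, had a median of -0.42 for miR-675 (range -5.40 to 1.19), of 2.01 for miR-298 (range -0.90 to 3.52) and of 0.48 for miR-296 (range -0.11 to 2.31). The 5′ arm was the higher one in 9 of 29 rats for miR-675, in 27 for miR-298 and in 26 for miR-296.

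The 2 rats with more of the 3′ than of the 5′ arm of miR-298 were Monash TBI- 2 (-0.90) and Monash TBI+ 2 (-0.29). The median ratio of the miR-298 arms was 1.90 for the UEF rats, 1.08 for those of Monash and 2.32 for those of UCLA. For miR-296 the ratio was tightest, with an SD of 0.20 at UEF and 0.24 at UCLA, and 0.80 at Monash, where Monash TBI- 2 reached 2.31.

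**Figure D4:**
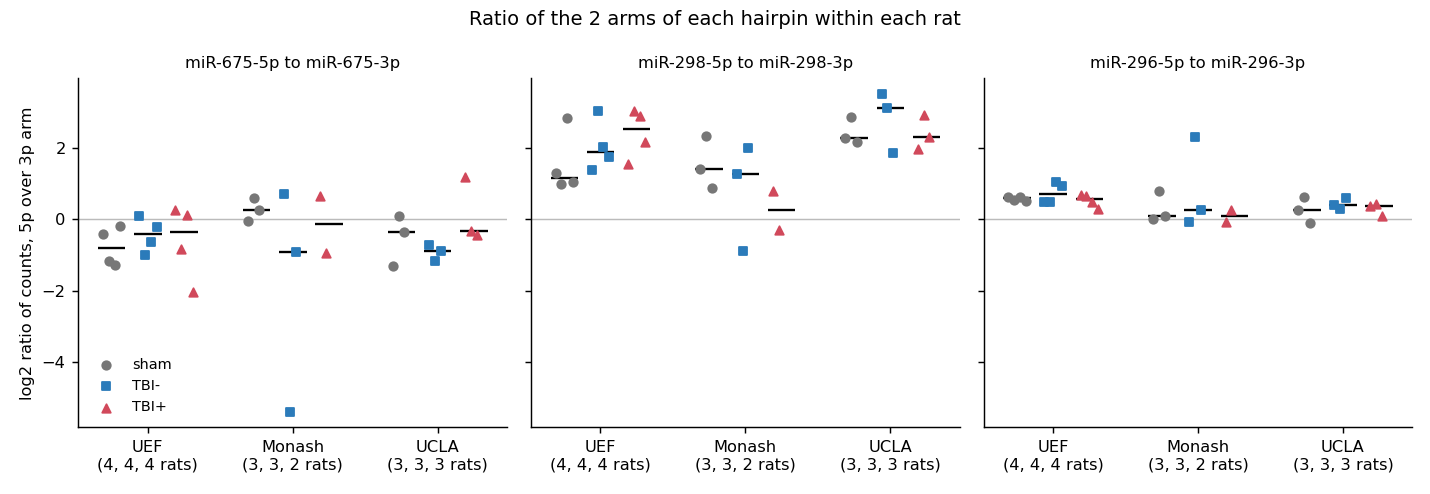
Log2 ratio of the counts of the 5′ arm to those of the 3′ arm of miR-675, miR-298 and miR-296 in each rat, by site and outcome, with lines at the group medians and a grey line at equal counts. Monash TBI- 2 lay lowest for miR-675 (-5.40) and miR-298 (-0.90) and highest for miR-296 (2.31).

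Whether products of one locus moved together from rat to rat was examined over the 15 pairs of the 6 miRNAs, on log2 CPM of the 29 rats with permutation tests. The 2 arms of miR-296 were correlated, with Pearson's r of 0.61 (permutation p = 0.0003, 0.0045 adjusted over the 15 pairs). Their Spearman's rho was 0.74 (permutation p = 2e-05, 0.0003 adjusted). Without the 2 rats farthest from the median of miR-296-5p, r was 0.59.

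Within sites, r of the miR-296 arms was 0.85 at UEF (n = 12) and 0.91 at UCLA (n = 9), but -0.18 at Monash (n = 8). After centring on each site and outcome group, rho was 0.35 and no longer passed (permutation p = 0.326 adjusted over the 15 pairs). The arms of miR-675 had r of 0.02 (permutation p = 0.903) and rho of 0.26 (p = 0.181), and those of miR-298 had r of -0.21 (p = 0.272) and rho of -0.32 (p = 0.0945). The sign for miR-298 depended on the scaling, with rho of 0.16 on library totals alone.

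Among the other 14 pairs none passed after adjustment over the 15, with Spearman's rho between -0.32 and 0.43. This rested on the scaling, since on library totals alone 10 of these pairs passed, with rho between 0.40 and 0.63. miR-298-3p and miR-296-5p, from neighbouring hairpins, had r of 0.20 and rho of 0.16 over all rats (permutation p = 0.311 and 0.404). After centring on site and outcome groups rho was 0.67, and this passed. Its permutations treated all 29 centred values as free although the group means had been removed, so its p can be too small. Within sites r was 0.86 for UEF, 0.81 for Monash and 0.28 for UCLA rats. All points share their library and its scaling, so they are not free of a common error.

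The miRNAs whose levels followed each member most closely were ranked by Spearman's rho of log2 CPM over the 29 rats. For miR-298-5p they were the red cell miRNA miR-486 (0.76), miR-93-3p (0.73) and miR-503-5p (0.71). For miR-296-5p they were miR-494-5p (0.85), miR-329-3p (0.81) and miR-212-5p (0.81), and its own 3′ arm ranked 14 of 750. For miR-296-3p they were miR-667-3p (0.84), miR-137-5p (0.80) and miR-666-5p (0.80), and its 5′ arm ranked 15. Of these, miR-494-5p, miR-329-3p, miR-667-3p and miR-666-5p come from the Dlk1-Dio3 region, which holds 81 of the 751 miRNAs tested. After centring on site and outcome groups, the closest to miR-296-5p were miR-329-3p (0.80), miR-875 (0.75) and miR-410-5p (0.74). Those closest to miR-296-3p were then miR-702-5p (0.82), miR-667-3p (0.78) and miR-547-5p (0.77). In these centred lists, miR-329-3p, miR-410-5p and miR-667-3p come from that region.

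Over the 29 rats without centring, the miRNAs closest to miR-298-3p were miR-149-3p (0.74), miR-742-5p (0.62) and miR-295-5p (0.52). The likeness was weaker for miR-675-3p, with miR-322-3p (0.50), the joint entry miR-450a-5p/450b-5p (0.48) and miR-181a-1-3p (0.48), and for miR-675-5p, with miR-99a-3p (0.53), miR-92a-2-5p (0.50) and miR-383-3p (0.48). Each arm of miR-675 stood at rank 72 or 71 of 750 in the list of the other, and the 5′ arm of miR-298 stood at rank 695 of the list of its 3′ arm. After centring on site and outcome groups, rho of the top-ranked miRNAs above was 0.54 for miR-486, 0.70 for miR-494-5p and 0.78 for miR-667-3p. It was 0.25 for miR-149-3p, 0.37 for miR-322-3p and 0.56 for miR-99a-3p. Another miRNA then ranked top for each member, among them miR-210-3p (0.74) for miR-298-5p and miR-434-5p (0.77) for miR-298-3p. With library totals alone, miR-296-3p kept its top-ranked miRNA and the other members did not.

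Other imprinted miRNAs gave a background for these results. miR-483-3p and miR-483-5p, from an intron of Igf2 and so neighbours of miR-675, had medians of 65.5 and 60.7 CPM over all rats, above both miR-675 arms. Their log2 fold change after TBI was 0.04 (SE 0.19) and 0.12 (SE 0.18), and they passed in none of the comparisons. miR-335, from an intron of the paternally expressed gene Mest, was 1.68 log2 units higher at UEF than at UCLA (SE 0.48, edgeR adjusted p = 0.0222), where 9.32% of all miRNAs passed. It fell by 1.80 after TBI at UEF (SE 0.49, edgeR adjusted p = 0.0292), where 3.86% passed. Its log2 fold change after TBI was 0.27 (SE 0.61) at Monash, 0.74 (SE 0.61) at UCLA and -0.58 (SE 0.40) over all rats. None of these 3 passed.

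In the UEF sham rats miR-335 ranged from 254 to 1798 CPM, against 54.6 to 378 CPM in the injured UEF rats, so the groups overlapped. Of the 81 miRNAs of the Dlk1-Dio3 region, a maternally expressed cluster, 2 rose after TBI and 0 fell, where 1.20% of all miRNAs passed, with a median log2 fold change of 0.08 against 0.03 over all miRNAs. For the 3 sites together, 10 of the 81 passed, beside 14.8% of all miRNAs.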

How the data were processed

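Per the methods of the study, the authors had small RNA libraries with molecular identifiers made from plasma, trimmed the reads with cutadapt, aligned them to the rat genome Rnor 6.0 with bowtie and took miRNA names from miRBase. The deposited table holds raw counts of 754 miRNAs as whole numbers in 29 rats, and the sources used here do not say whether the counts are of reads or of molecules. If of reads, amplification adds to the spread. Groups were taken from the sample titles. Nothing in the labels says more of the replicates than that each is a rat, and of 34 pairs of rats within groups, 0 held identical values.

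The 6 miRNAs, the marker lists and the lists of other imprinted miRNAs were chosen with earlier results of these data known. Differences were fitted in R 4.3.3 by the quasi-likelihood method of edgeR 4.0.16, which uses limma 3.58.1. The filter filterByExpr, at 10 counts, kept 751 miRNAs. Libraries were scaled by TMM, the model held site and outcome for all rats, and p-values were adjusted by Benjamini-Hochberg over every miRNA tested and called below 0.05. Injury effects by site came from a model with their interaction. Each SE given is the size of the log2 fold change divided by the square root of the F statistic of its edgeR test. The code was tested on simulated data. log2 CPM used a prior count of 2, and groups within a site were also compared with exact permutation tests of mean log2 CPM. Correlations used 100000 permutations, or all of them in groups under 10 rats. The design named 6 pairs, for 4 listed members, and the rule by name found 6 miRNAs and so 15 pairs. Named miRNAs were all 6 members, the 3 most like each of them, and miR-483 and miR-335; the miRNAs that were high in Monash TBI- 2 had their values known when they were named. The alternatives tried were another test (DESeq2 1.42.0), other scalings and filters, thinning, other covariates, a replicate block, and sites or rats left out. Sequences and positions came from RefSeq on GRCr8, not the build of the alignment, and were matched by name. Permutation tests used scipy 1.17.1 and statsmodels 0.14.6, tables pandas 2.3.3 with numpy 2.4.6, and plots matplotlib 3.10.9, all under Python 3.11.15.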

Additional observations from a re-analysis of the deposited data

Results flagged for a closer look

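Values that stood apart from the rest of their group were looked for among the 6 miRNAs in 48 groups of 4 to 10 rats. Dixon's test on CPM was used, which for normal values marks about 1 in 20 groups by chance. It marked 8. The groups shared rats, so the marks are not independent and their number cannot be set against that rate. miR-675-3p in Monash TBI- 2, at 501.2 CPM, stood above the other 7 Monash rats and above the other 9 TBI- rats. miR-298-3p in the same rat, at 64.69 CPM, stood above the other TBI- rats, and in Monash TBI+ 2, at 36.45 CPM, above the other TBI+ rats. In UEF TBI+ 4, miR-675-3p at 26.32 CPM and miR-296-3p at 84.49 CPM stood above the other 3 rats of that group. miR-298-3p in UEF sham 3, at 4.021 CPM and 7 counts, stood below the other 3 UEF sham rats. miR-296-3p in UCLA sham 3, at 136.4 CPM, stood above the other 9 sham rats.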

How the results depend on the processing

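In the comparisons of injury and outcome, 0 of the 6 miRNAs passed the threshold under any alternative run. miR-298-5p kept its direction and stayed past the threshold in both comparisons with UCLA when any 1 rat was left out. It passed in neither among sham rats alone (-1.03 for UEF and -0.62 for Monash against UCLA), and UEF against UCLA did not pass among injured rats alone (-0.66) or with miR-28-3p as scaling gene (-0.77), the alternatives then giving 0 of the 6. For UEF against Monash, miR-298-3p did not pass with library totals alone (-1.27), with miR-28-3p as scaling gene (-1.14), among injured (-1.64) or among sham rats alone (-0.20). It was filtered out where at least 10 counts in every rat were asked for. In all of these 0 of the 6 passed between UEF and Monash. For the 3 sites together 1 of the 6 passed with this filter, with library totals alone and with miR-28-3p as scaling gene, and 0 among sham rats alone. Without covariates 2 of the 6 passed between UEF and Monash, miR-675-3p (-1.89) being added, and with DESeq2 2 passed between Monash and UCLA, miR-298-3p (1.03) being added. After centring, the correlation of the miR-296 arms no longer passed (0.35). The cause of these changes was not tested. Some of the alternatives also hold fewer rats or miRNAs.

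Replicate numbers did not pair rats: same-numbered rats of 1 site had correlations of their deviations between -0.42 and 0.40 (median -0.01, 28 pairs). With the replicate number as a block, miR-298-3p was -1.09 for UEF against Monash and did not pass (0 of the 6), 1 of the 6 passed for the 3 sites together, and miR-296-5p for UEF against UCLA turned to -0.01. The block changed no other call.

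With 1 rat left out, or with UEF sham 3 and Monash TBI- 2 left out together (chosen after seeing the data), miR-298-3p for UEF against Monash ranged from -1.32 to -0.69, miR-675-3p from -1.36 to 0.41 for UEF against Monash, from -0.76 to 1.04 for Monash against UCLA and from -0.00 to 3.16 for TBI at Monash. The end nearest to or beyond 0 came in each case with Monash TBI- 2 left out, alone or together with UEF sham 3. Small differences changed sign: miR-296-3p (-0.02 to 0.21) and miR-298-3p (-0.52 to 0.11) for TBI+ against TBI-, miR-675-5p (-0.09 to 0.12) and miR-296-5p (-0.15 to 0.02) for TBI against sham, and miR-296-5p for UEF against UCLA (-0.05 to 0.14). The number passing ranged from 0 to 2 for UEF against Monash, and from 1 to 2 for Monash against UCLA and for the 3 sites.

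Differences that did not pass in the main fit, with site and outcome in the model, also changed sign elsewhere. For TBI against sham these were miR-675-5p (0.16) and miR-298-3p (-0.07) without the Monash rats, and miR-296-5p without the UCLA rats (0.09), with library totals alone (0.00) and with the red cell ratio (0.00). For TBI+ against TBI- they were miR-296-3p without the Monash rats (-0.27), miR-298-5p (0.05) and miR-296-5p (0.10) without the UCLA rats, and miR-675-5p without the UEF rats (0.11). Among sham rats alone they were miR-675-3p (0.42) and miR-298-5p (-0.41) for UEF against Monash, miR-296-5p (-0.11) for UEF against UCLA, and miR-675-5p (0.26) and miR-675-3p (-0.63) for Monash against UCLA. For UEF against Monash, miR-675-5p was 0.05 among injured rats alone and miR-298-5p was -0.02 after thinning. Spearman's rho turned for the miR-298 arms with library totals alone (0.16) and, after centring, for miR-675-5p with miR-298-5p (-0.05) and miR-298-3p (-0.05) and for miR-298-5p with miR-296-5p (-0.27) and miR-296-3p (-0.35). The separation of UEF TBI+ from UEF sham rats in miR-298-5p was lost with library totals alone (chosen after seeing the data), while 3 and 4 of the 6 then separated TBI+ from TBI- and from sham rats at UCLA, where 24.8% and 41.0% of all miRNAs did. The separation of UCLA TBI- above sham rats was then seen in 0 of the 6, and in 1.46% of all miRNAs. That of Monash TBI+ below sham rats was seen in 0 of the 6 and 5.06% of all miRNAs. Monash TBI+ rats lay above sham rats in 3 of the 6 and 30.9% of all miRNAs. They lay above TBI- rats in 1 of the 6 and 33.6% of all miRNAs.

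Over all miRNAs, the number past the threshold ranged over the alternatives from 0 (without the UEF rats) to 24 (DESeq2) for TBI against sham, 0 to 10 for TBI- against sham, 0 to 13 for TBI+ against sham, 0 to 109 for UEF against Monash, 36 to 81 for UEF against UCLA, 21 to 59 for Monash against UCLA, 40 to 155 for the 3 sites, 0 to 17 for the injury effect by site, 20 to 51 for TBI at UEF, 0 to 5 at Monash and 0 to 9 at UCLA. The depth was lowest for miR-298-3p (7 to 210 counts per rat) and miR-675-5p (14 to 71 counts).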
